A study of Mus musculus with 3 samples.

Results

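The 118 genes described here flank Plk1 on mouse chromosome 7. They were chosen by position alone: every gene with a symbol whose array probe lies between 113000000 and 123000000 in the mm7 build, without Plk1 itself and without symbols that start with Il or Cacn. They are 118 of the 21293 genes with a symbol on the array, and 194 probes report them. The rule uses no measured value, although the window and the lists below were set with earlier results of these data known.

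RNA of mouse aortas was measured on 3 two-colour oligonucleotide arrays of 1 slide. Each array held, in the red dye Cy5, RNA of 1 aorta labelled Plk1(+/-), and in the green dye Cy3 the same pool of 3 wild-type aortas, labelled Plk1(+/+) in the design. All animals were 129/CD1 and 3 to 5 months old. The labels do not say how the Plk1 allele was interrupted, and a growth protocol among them describes embryonic stem cells, so the tissue label was followed. The dyes were never swapped, so dye and genotype cannot be told apart. Every log2 ratio is the labelled sample over the pool, and a value of 1 is a doubling.

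Plk1 encodes polo-like kinase 1, which drives entry into mitosis, spindle assembly and cytokinesis. Genes that lie close together on a chromosome are inherited together, so a modified allele is passed on with the stretch that surrounds it, in a mixed background also with the strain variants of that stretch. Flanking genes are therefore a common control in studies of a targeted locus. The stretch around Plk1 carries genes of very different kinds: a dynactin subunit, kinases, an epithelial sodium channel, medium-chain acyl-CoA synthetases, and a dense cluster with lymphocyte, skeletal muscle and ubiquitous genes.

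The probes are 60 bases long, and the first 30 bases are given for those on which the results turn, read 5′ to 3′ from the deposited files. The first 2 are the immediate neighbours of Plk1. The next pair are 2 probes assigned to Slx1b that differed from each other. The following pair are a saturated and an unsaturated probe of Ndufab1, and the last are the used and the further probes of Coro1a and Atp2a1, the members with the highest and the lowest mean ratio without saturation.

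Dctn5: tctgttgttttaaggtggccttagttgtcc
Ern2: atgatgtccggcctggcccatctacattcc
Slx1b, listed in the files as 1110030E23Rik: ggggagtcacagaaaaaggcgctcacagaa
Slx1b, listed in the files as Giyd2: gacagacttgctggagacttgatcctaagt
Ndufab1, saturated probe: ttcctgatatagatgcagagaagttaatgt
Ndufab1, an unsaturated probe: tgtaaatggctactttaaatcccagggtag
Coro1a, used probe: ctggaggaggacgtgaggaatctgaacgcc
Coro1a, further probe: tgacagctctatccggtattttgagatcac
Atp2a1, used probe: tgccagtcatcgggctggatgagcttctca
Atp2a1, further probe: tgccgtggaggaaggccgcgccatctacaa

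Probe spots were well above background for 79.8%, 76.4% and 80.3% of the array in Cy5 and for 65.4%, 68.4% and 67.5% in Cy3 on the arrays of samples 1, 2 and 3. With 3 arrays, precision is limited. Plk1 itself read -0.06, -0.08 and 0.42, a mean of 0.10 ± 0.28 (SD, n = 3; limma adjusted p = 0.705), on 1 probe at chr7:118093971-118094030 on the plus strand. No lower Plk1 signal was therefore seen in the samples labelled Plk1(+/-). The probe may lie outside the interrupted part, in which case it checks nothing, and samples are named by their label throughout. Smooth muscle markers, which define the medial layer of the labelled vessel, were well detected, with 10 of 10 tested.

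Of the 118 members, 106 passed the filter on dim probes and were tested. The 12 that did not pass were Abca14, Abca15, Abca16, Acsm2, Acsm4, Anks4b, Gp2, Slc5a11, Zp2, 4930533L02Rik, 4933432K03Rik and LOC546994. They include Zp2, which encodes an egg coat protein, and Gp2, which encodes a membrane protein of the pancreas. Among the 106, Aldoa, Ndufab1 and Uqcrc2 gave spots at the limit of the scanner and have no measured ratio, which left 103 unsaturated members.

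The ratios of the flanking genes centred near 0. Over the 103 unsaturated members the median log2 ratio was 0.0087 in sample 1, 0.04 in sample 2 and 0.06 in sample 3. The median of the mean ratios was 0.04, against 0.04 over all 21522 unsaturated features of the array and 0.03 over 1566 features from the rest of chromosome 7. The quartiles of the members ran from -0.06 to 0.15 and those of all features from -0.08 to 0.15. Within 0.3 of 0 lay 90 of 103 members (87.4%), against 83.7% of all features. The members ranged from -1.56 for Atp2a1, a calcium pump of fast skeletal muscle, to 1.34 for Coro1a, an actin-binding protein of leukocytes.

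**Figure D1:**
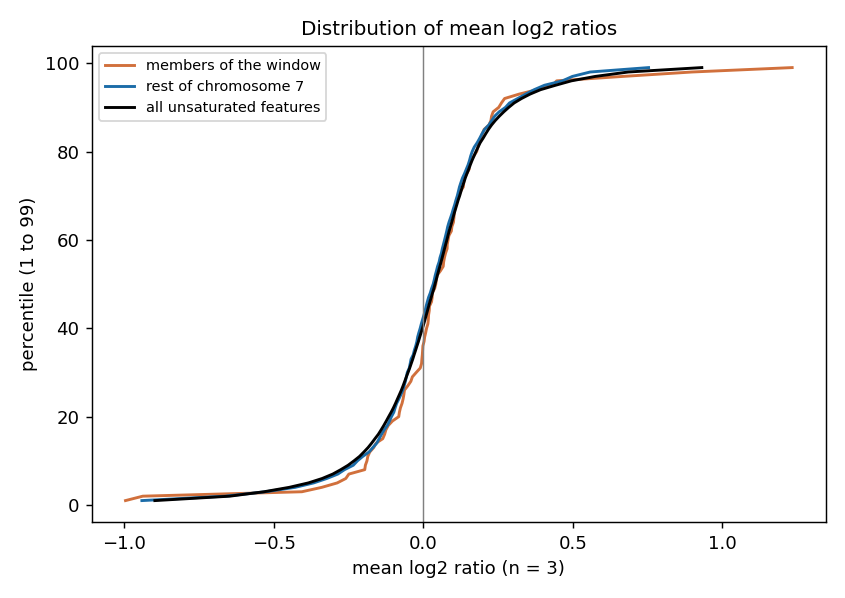
Cumulative distribution of mean log2 ratios (horizontal axis, n = 3 arrays), drawn from the 1st to the 99th percentile (vertical axis), for the 103 unsaturated members, for the rest of chromosome 7 and for all unsaturated features. The 3 curves cross their midpoint at 0.04, 0.03 and 0.04, and the members' curve reaches further to the right above 0.5, where Coro1a, Lat and Prkcb lie.

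Each feature was tested against a ratio of 0 with limma, and p-values were adjusted over all 22051 features by the Benjamini-Hochberg method. At an adjusted p under 0.05, 4 of 106 members were called, all lower, or 3.77%, against 0.925% of all features (0.889% lower and 0.0363% higher) and 0.938% of the rest of chromosome 7. Of the 4 calls, 3 were the saturated members, and 32.5% of all saturated features were called. Among unsaturated members 1 of 103 was called, against 0.149% of unsaturated features. At an unadjusted limma p under 0.05 there were 21 of 106 members (19.8%), 10 higher and 11 lower, against 19.0% of all features (9.17% higher and 9.79% lower) and 18.1% of the rest of chromosome 7. The share of members past the unadjusted level was thus near the background, and the share of calls rested on saturated probes. With median centring in place of loess 59 of 106 members were called, 43 higher and 16 lower, against 44.3% of all features. That setting moved the median of all features from 0.04 to 0.23 and that of the members from 0.04 to 0.34, so directions below hold for the loess setting.

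The same sign on all 3 arrays was seen for 53 of 103 members (51.5%), 31 positive and 22 negative, against 44.7% of all unsaturated features (26.8% positive and 17.9% negative). All 3 ratios share the same pool, so a common sign is not 3 separate observations. The 95% interval of the limma fit held 0 for 85 of the 103, lay wholly within 0.5 of 0 for 79 and wholly within 1 of 0 for 96. It lay wholly above -1, the log2 value of a halving, for 100 of 103. The 3 exceptions were Slx1b, Nupr1 and Atp2a1. The intervals hold the scatter of the 3 labelled samples and leave out that of the pool. These arrays compress ratios: the log ratios of spiked-in RNA rose by 0.793, 0.815 and 0.823 for each unit by which they should have risen, per the file headers.

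The immediate neighbours of Plk1 did not differ from the pool beyond their spread. Ern2, the gene of an endoplasmic reticulum stress sensor of mucosal epithelium, lies 3.69 kb away on the telomeric side. It read -0.25, -0.06 and -0.04, a mean of -0.12 ± 0.12 (SD, n = 3; limma adjusted p = 0.458; 95% interval -0.33 to 0.10). Its 3 ratios were negative, and 2 of them lay within 0.1 of 0. Dctn5, a subunit of dynactin, the activator of the microtubule motor dynein, lies 20.7 kb away on the centromeric side. It read 0.51, 0.05 and 0.13, a mean of 0.23 ± 0.25 (limma adjusted p = 0.363; 95% interval -0.09 to 0.54). Sample 1 was the highest on all 3 kept Dctn5 probes, and the further probes averaged 0.15 and -0.02. The intervals of both neighbours lay above -1 against this 1 pool. They leave out the spread of the pool, and dye and genotype cannot be told apart, so a halving against wild type is not excluded.

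Palb2, the partner of BRCA2 in homologous recombination, followed at 43.3 kb with 0.19, -0.02 and 0.11, and its pool signal was never well above background. Chp2, a calcineurin-like EF-hand protein, at 52.3 kb, read 0.17, 0.05 and -0.17. Ubfd1, a ubiquitin-family protein, at 87.7 kb, read 0.32, 0.17 and 0.06, and Ears2, the mitochondrial glutamyl-tRNA synthetase, at 131 kb, read -0.21, 0.02 and 0.19. Of these 4, Ubfd1 was positive in all 3 samples on its used probe, and the others had ratios on both sides of 0. The further kept Ubfd1 probes were negative in sample 1, at -0.09, -0.17 and -0.21. The limma adjusted p-values ran from 0.311 for Ubfd1 to 0.992 for Ears2.

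Gga2, an adaptor of vesicles that leave the Golgi, at 181 kb, read -0.12, 0.00 and -0.13. Cog7, a subunit of the complex that tethers vesicles at the Golgi, at 246 kb, was higher in 3 of 3 samples with 0.16, 0.23 and 0.20 (limma adjusted p = 0.241). Scnn1b, a subunit of the epithelial sodium channel, at 252 kb, read 0.17, -0.03 and 0.21 on a probe not well above background in the pool. Of these 3, Cog7 alone had 1 sign on all arrays, and it was not called.

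On the telomeric side beyond Chp2 the genes are sparser. Prkcb, protein kinase C beta, a kinase of B-cell receptor signalling, at 459 kb, was the only one of the 16 nearest members beyond 0.3 among those measured without saturation, with 0.08, 0.95 and 1.69. Rbbp6, an RB1-binding ubiquitin ligase, at 833 kb, read -0.05, 0.04 and -0.01, and Tnrc6a, a scaffold of microRNA silencing, at 1204 kb, read -0.14, -0.30 and 0.06. Further kept probes averaged -0.23 and -0.07 for Rbbp6 and -0.27 and 0.07 for Tnrc6a. The probes at -0.23 and -0.27 were negative in all samples. Arhgap17, a GTPase-activating protein, at 1288 kb read 0.06, 0.14 and 0.35. Lcmt1, the methyltransferase of the PP2A phosphatase, at 1434 kb read 0.31, 0.04 and -0.04. Slc5a11, a sodium-coupled inositol transporter gene between Tnrc6a and Arhgap17, did not pass the filter. Of the 16 nearest members 15 were tested and 14 were unsaturated; 13 of the 14 lay within 0.3 of 0, and their median was 0.10.

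**Figure D2:**
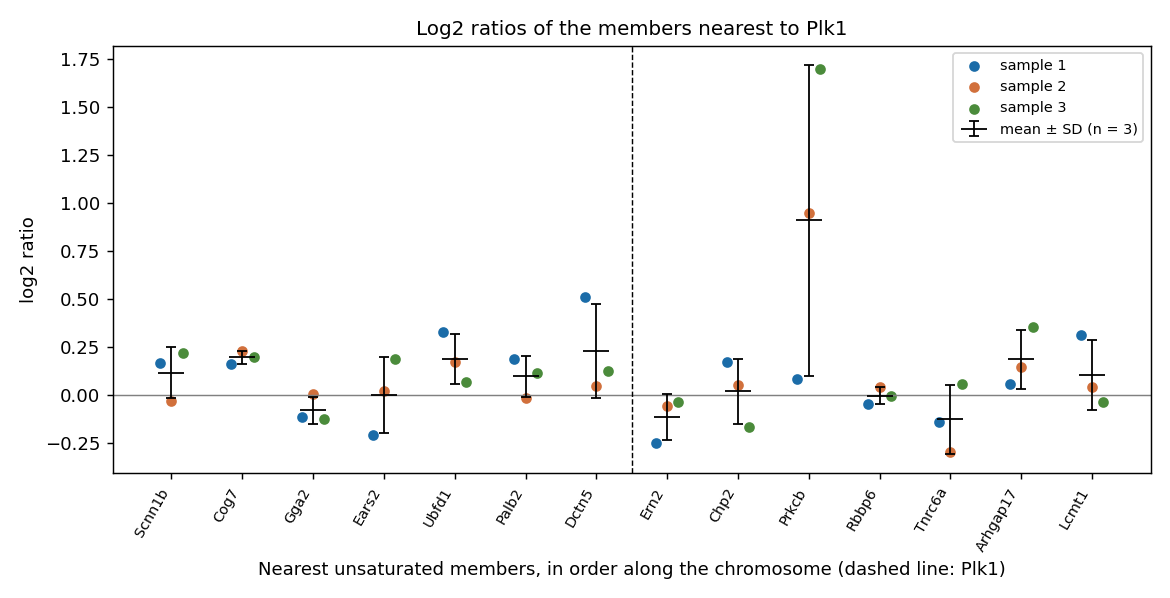
Log2 ratios (vertical axis) of the 14 unsaturated members nearest to Plk1, 7 on each side, in order along the chromosome (horizontal axis, dashed line at Plk1). Coloured points are samples 1, 2 and 3, and black bars are the mean ± SD (n = 3). All means but that of Prkcb lie within 0.3 of 0, and Prkcb runs from 0.08 in sample 1 to 1.69 in sample 3.

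Ndufab1, the mitochondrial acyl carrier protein and a complex I subunit, lies 78.1 kb from Plk1 and was called on a saturated probe. At chr7:118015882-118015941 its Cy5 signal was at the scanner limit on all 3 arrays, while Cy3 read 46125, 47420 and 43810. A spot at the limit hides any Cy5 signal above it, so no fold is given. Its 2 kept unsaturated probes read 0.32, 0.06 and -0.37, and 0.13, 0.15 and -0.28, with means of 0.01 and -0.00. The lower call of Ndufab1 was therefore not seen on the probes that stayed in the range of the scanner.

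The other 2 saturated members carry no second reading. Uqcrc2, a core subunit of respiratory complex III, was saturated in Cy5 on all 3 arrays and read 52396, 50897 and 54915 in Cy3, with 1 probe at chr7:116581368-116581427. Aldoa, the glycolytic aldolase of muscle, was saturated in both dyes on all 3 arrays and on both of its probes, so its ratio has no bound in either direction. With saturated features left out before the fit, limma called 0 of 103 members and 0 of 21522 features, and 18 of the 103 had an unadjusted p under 0.05, against 17.7% of those features.

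Slx1b, a structure-specific endonuclease subunit that cuts branched DNA, was the 1 unsaturated member called. Its brightest probe, at chr7:122786138-122786197 on the minus strand, read -0.90, -1.16 and -0.82 in samples 1, 2 and 3, and all 3 ratios lay below -0.8. The mean was -0.96 ± 0.17 (SD, n = 3; SE 0.093; limma adjusted p = 0.0430), 1.94-fold lower, with a 95% interval from -1.21 to -0.71. The files list this probe under the clone name 1110030E23Rik, which the RefSeq gene listing gives as a synonym of Slx1b. The second probe, at 122788146 to 122788205 and listed as Giyd2, read 0.03, -0.30 and -0.21, a mean of -0.16 ± 0.17. The ratios of the 2 probes do not overlap, and their distance of 0.80 was the widest among the members.

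The Slx1b call was lost in several settings while the probe stayed lower. Its limma adjusted p was 0.223 without saturated features, 0.126 for the mean of both probes (-0.56), 0.0757 on the deposited log ratio and 0.0603 on the series values. It was 0.081 without sample 1, 0.275 without sample 2 and 0.131 without sample 3. Over 13 alternatives it ran from 0.0209 to 0.275. The members with the nearest probes on each side lay around or above 0. Sult1a1, a phenol sulfotransferase, read -0.22, 0.11 and 0.39, and Bola2, which serves iron-sulfur cluster transfer, read 0.28, 0.20 and 0.20.

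Several genes of the leukocyte list differed widely between samples. Of its 8 members 4 had an unadjusted limma p under 0.05, 3 higher (Coro1a, Lat and Prkcb) and 1 lower (Nupr1), against 19.0% of all features, and 0 were called. The list was drawn up by hand and also holds genes made in other cells, such as Nupr1 and Sult1a1. Their median log2 ratio was 0.04 in sample 1, 0.44 in sample 2 and 0.92 in sample 3.

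Coro1a, coronin 1A, at chr7:122796469-122796528, read 0.53, 1.37 and 2.13, a mean of 1.34 ± 0.80 (SD, n = 3; limma adjusted p = 0.189), 2.54-fold above the pool. Its further probe read 0.43, 1.505 and 2.04. Both probes were thus above the pool in 3 of 3 samples, lowest in sample 1 and highest in sample 3. Lat, the adaptor that links the T-cell receptor to its signalling enzymes, at chr7:122460763-122460822, read 0.10, 1.69 and 1.93, a mean of 1.24 ± 0.99 (limma adjusted p = 0.234). Sample 1 lay near 0 and the other two lay above 1.6, and without sample 1 Lat was called (mean 1.81, limma adjusted p = 0.0398).

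Prkcb had a mean of 0.91 ± 0.81 (SD, n = 3; limma adjusted p = 0.257), and its further probe, at 0.00, 0.32 and 0.59, kept the order of the samples at a smaller size with a mean of 0.30. Nfatc2ip, which binds an NFAT factor of T cells, averaged 0.14, Apobr, a lipoprotein receptor of macrophages, 0.08, and Sult1a1 0.09. Coro1a, Lat and Prkcb had their highest values in sample 3. Nfatc2ip, Apobr and Sult1a1 stayed nearer to 0 and were also highest in sample 3 on their used probes, at 0.36, 0.18 and 0.39. Outside the list, members such as Dcun1d3 and Tbx6 were highest in sample 3 too, and others, such as Crym and Syt17, in sample 1.

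Nupr1, a stress-induced nuclear protein that many cell types make, moved the other way. It read -0.51, -1.59 and -0.89, a mean of -0.995 ± 0.549 (SD, n = 3; limma adjusted p = 0.179), and was lowest in sample 2. It has 1 probe here, at chr7:122720022-122720081, with a 95% interval from -1.61 to -0.38.

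The medians of lymphocyte markers moved in the same samples. T-cell markers had medians of 0.19, 1.40 and 1.68, with 10 of 10 tested and 9 of 10 positive on all arrays. Not all T-cell markers kept that order. Thy1 read 1.13, 0.40 and 0.22, Cd4 0.11, 0.18 and 0.12, and Cd3e 0.16, 0.02 and 0.16, while the others rose from sample 1 to sample 3. The summed normalised signal of the T-cell markers was between 14475 and 16908 in Cy5, a narrow range beside that of the medians, and between 7788 and 7987 in Cy3. B-cell markers had medians of 0.11, 1.24 and 1.78, with 7 of 10 positive on all arrays and summed signals of 3762 to 20733 in Cy5 and 3357 to 3731 in Cy3. Myeloid markers had medians of 0.12, 0.04 and 0.35, with 5 of 9 unsaturated markers positive and 1 negative on all arrays. Their summed signals were 57242 to 67439 in Cy5 and 73007 to 94691 in Cy3. None of these markers was missing from the kept probes. Their part in the ratios of Coro1a, Lat and Prkcb was not tested. In whole tissue, more cells of a type and more RNA per cell cannot be told apart.

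Atp2a1, which encodes the calcium pump SERCA1 of fast skeletal muscle, had the lowest unsaturated mean of the window. Its used probe starts at 122543142 and read -0.98, -0.95 and -2.74, a mean of -1.56 ± 1.03 (SD, n = 3; limma adjusted p = 0.201), 2.94-fold below the pool. The further probe read -0.96, -0.77 and -2.26. Both probes were negative in 3 of 3 samples, with sample 3 far below the other two, and no setting tried made it a call (limma adjusted p from 0.0842 to 0.551 over 13 alternatives). Aldoa, the other striated muscle gene, is the saturated member above.

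Skeletal muscle markers had medians of -0.69, -0.94 and -2.95, with 8 of 8 unsaturated markers negative on all arrays, and were low in the same samples as Atp2a1. Their summed normalised signal ran from 41857 to 192800 in Cy5 and from 309462 to 356931 in Cy3, and all 10 markers were detected. Their part in the ratio of Atp2a1 was not tested. Smooth muscle markers read -0.36, -1.13 and -1.05 at the median, fibroblast markers -0.17, -0.42 and -0.28, endothelial markers 0.05, -0.06 and -0.20, and red cell markers -0.50, -1.19 and -0.91. Fat markers read 0.01, 0.20 and -0.22 over 4 unsaturated markers of 10. The other 6 had saturated spots and no measured ratio, and 4 of them were called lower. The summed normalised signal of all 10 was 277915 to 291511 in Cy5 and 590100 to 642581 in Cy3. Nerve and Schwann cell markers read 1.17, 0.47 and -0.13. The marker Hemgn of red cells did not pass the filter on dim probes.

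**Figure D3:**
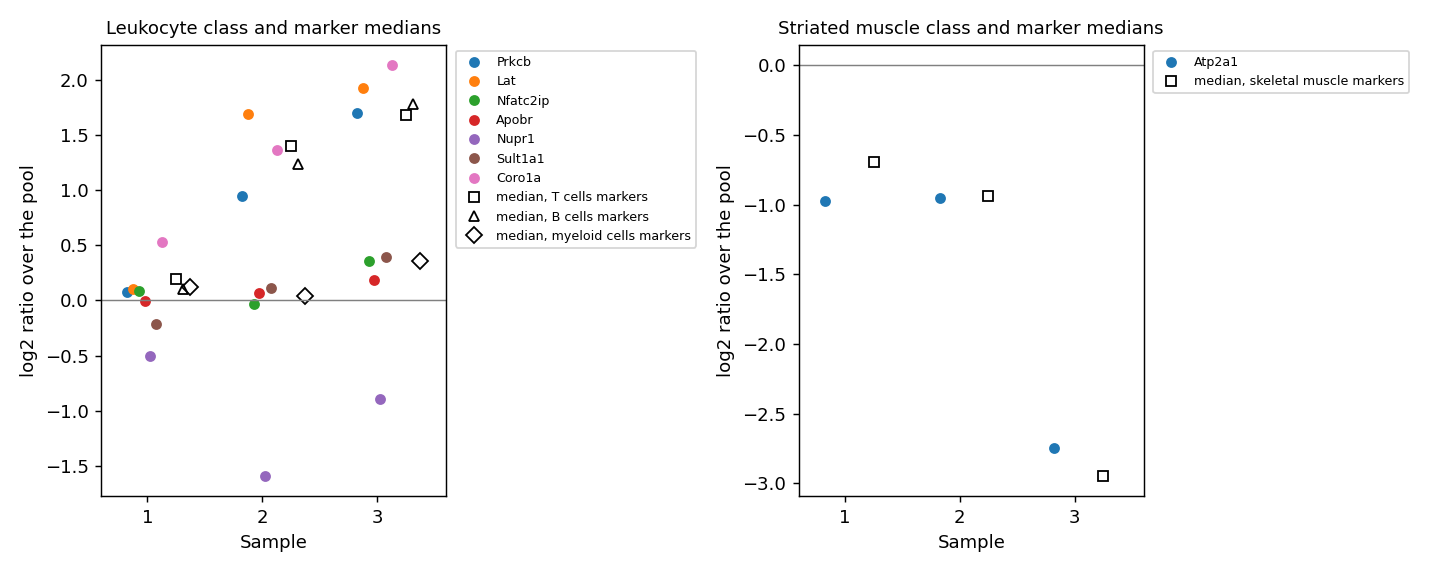
Log2 ratios over the pool (vertical axis) in samples 1, 2 and 3 (horizontal axis) of 7 leukocyte members (left) and of Atp2a1 (right), as coloured points, with the medians of marker lists as open black symbols. Coro1a, Lat and Prkcb have their lowest value in sample 1 and their highest in sample 3, as do the T-cell and B-cell marker medians, and Atp2a1 and the skeletal muscle median are lowest in sample 3.

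Outside the leukocyte and striated muscle lists there were 108 members and 96 tested. Of these, 15 had an unadjusted limma p under 0.05 (15.6%, against 19.0% of all features) and 3 were called (3.12%, against 0.925%), 2 of them saturated. Within 0.3 of 0 lay 87 of the 94 unsaturated ones (92.6%, against 83.7% of all features), and their means ran from -0.96 for Slx1b to 0.45 for Crym. The lists left out hold Coro1a, Lat, Nupr1, Prkcb and Atp2a1 and were chosen with earlier results known. The shares of all features keep leukocyte and muscle genes, so these shares are unlike and no trait of the members is read from them. The background for the short lists that follow is the same 19.0% (9.17% higher and 9.79% lower).

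Genes of DNA repair and cell division, the process in which Plk1 acts, counted 11 tested members. At an unadjusted p under 0.05, 1 was higher and 2 were lower, Slx1b among them, and the median was 0.09. Nsmce1, a ubiquitin ligase subunit of the SMC5/6 complex, read 0.41, 0.30 and 0.60, a mean of 0.44 ± 0.15 (SD, n = 3; limma adjusted p = 0.161), 1.35-fold higher and above 0.2 in 3 of 3 samples. Cdr2, a cytoplasmic coiled-coil protein that binds MYC and is controlled in mitosis, read -0.11, -0.59 and -0.53, a mean of -0.41 ± 0.26 (limma adjusted p = 0.219). Ccp110, a centriole cap protein, averaged -0.04, Ppp4c, a phosphatase of centrosomes, 0.02, and the deubiquitinase gene Usp31 0.13.

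Among kinases, phosphatases and adaptors 9 members were tested, 1 higher (Prkcb) and 2 lower at an unadjusted p under 0.05. Gdpd3, a lysophospholipase D, read -0.29, -0.25 and -0.23 (limma adjusted p = 0.193). Eef2k, the kinase that slows translation elongation, read -0.27, -0.32 and -0.18 (limma adjusted p = 0.203), and a further probe averaged -0.20. Mapk3, the kinase ERK1, read 0.41, 0.07 and -0.12, and Taok2, a MAP kinase kinase kinase, averaged -0.08. Sh2b1, an adaptor of receptor kinases, averaged -0.13 on ratios of -0.33, -0.03 and -0.03.

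The genes of ribosome and translation had 5 tested members, of which Eef2k alone had an unadjusted p under 0.05. Rps15a, a protein of the small ribosomal subunit, read 0.03, 0.11 and 0.65 on its used probe, high in sample 3 only. Its further probe read 0.53, 0.22 and 0.01, highest in sample 1. The probes averaged 0.26 and 0.25, but the order of the samples did not hold across them. Eif3c, a subunit of initiation factor eIF3, averaged 0.00, with 5 kept probes between -0.19 and 0.24. Smg1, the kinase of nonsense-mediated decay, averaged 0.04, with 5 kept probes between -0.15 and 0.19.

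The list of mitochondrial genes had 7 tested members including the saturated Ndufab1. It was drawn up by hand and also holds genes of other compartments, such as the lysosomal Spns1. A place on it therefore does not make Bola2 a mitochondrial gene. Bola2 was the 1 unsaturated member of the list with an unadjusted p under 0.05, at a mean of 0.23 ± 0.04 (SD, n = 3; limma adjusted p = 0.217) and 3 positive ratios. Tufm, the mitochondrial elongation factor Tu, averaged 0.07. Coq7, an enzyme of ubiquinone synthesis, averaged 0.16 on its used probe and -0.16 on the other, so no direction holds for it. Membrane traffic had 7 tested members, with Cog7 and Arl6ip1 higher at that level. Arl6ip1, a protein that shapes the endoplasmic reticulum, read 0.35, 0.27 and 0.15 (limma adjusted p = 0.217). Cln3, a lysosomal membrane protein, averaged 0.21, and Spns1, a lysosomal lysophospholipid transporter, -0.11.

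In the class of transcription and chromatin 0 of 10 tested members had an unadjusted limma p under 0.05, and the median was 0.01. Their means ran from -0.13 for Tnrc6a to 0.15 for Hirip3, which binds the histone chaperone HIRA. Tbx6, a T-box factor of the embryonic mesoderm, scattered most, with -0.38, 0.01 and 0.49. The TFIIIC subunit gene Gtf3c1 averaged 0.03 and the RNA polymerase III subunit gene Polr3e -0.00.

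Nervous system genes had 6 tested members with a median of 0.10. Crym, a thyroid-hormone-binding crystallin, read 0.72, 0.38 and 0.23, a mean of 0.45 ± 0.25 (SD, n = 3; limma adjusted p = 0.201), and was highest in sample 1. Syt17, a synaptotagmin, read 0.73, 0.34 and -0.08 and had its lowest value in sample 3. Nerve markers were also high in sample 1 and low in sample 3, as given above, and their part in these ratios was not tested. Doc2a, a calcium sensor of synapses, read -0.07, -0.09 and -0.06.

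The epithelial, kidney and gut class had 21 members, of which 13 were tested. Of these, 0 had an unadjusted limma p under 0.05, and their means ran from -0.17 for Pdilt to 0.24 for Gprc5b. The class was drawn up by hand and also holds genes of other tissues, such as Pdilt and the egg coat gene Zp2. Several tested members were barely detected in this vessel. Umod, the urinary protein uromodulin, was not well above background in the pool. Its bound was 1.06-fold above the pool, a point value without an error, and it was not called (limma adjusted p = 0.295). Scnn1g, a further subunit of the epithelial sodium channel, was likewise dim in the pool, with such a bound of 1.07-fold, and was not called (limma adjusted p = 0.473). The pool signal was not well above background on any array for 11 tested members, among them Acsm1, Pdilt, Palb2, Scnn1b and Gsg1l.

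The remaining members stand on none of these hand-made lists, which are incomplete: the respiratory chain gene Uqcrc2 and the immune gene Igsf6 are among them. Of 36 tested, 2 were higher and 3 lower at an unadjusted p under 0.05, the saturated Uqcrc2 among the latter, and the median was 0.01. Igsf6, an immunoglobulin-superfamily gene of dendritic cells and macrophages, read 0.41, 0.20 and 0.56 (limma adjusted p = 0.191). Ypel3, a small zinc-binding protein, read 0.26, 0.35 and 0.21 (limma adjusted p = 0.196). Itpripl2 read -0.22, -0.19 and -0.62 and 1700016B15Rik read -0.14, -0.27 and -0.46. Both were dim: Itpripl2 was well above background on 2 arrays in Cy5 and on 1 in Cy3, and 1700016B15Rik was not in the pool. Dcun1d3, a factor of cullin neddylation, had a mean near 0 from ratios of -0.86, 0.11 and 0.76, and its samples disagreed in sign. Tmem159 (-0.10, -0.24 and -0.22) and BC030336 (-0.16, -0.12 and -0.31) were below 0 on all arrays and turned to 0.22 each with median centring.

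The medians by distance from Plk1 were all near 0. Within 1 Mb there were 16 members and 15 tested, with a median of 0.10 and 13 of 14 unsaturated ones within 0.3 of 0. The 10 unsaturated ones on the centromeric side had a median of 0.11 and the 4 on the telomeric side one of 0.01. Within 2 Mb there were 41 members and 34 tested, of which 8 had an unadjusted p under 0.05 (23.5%), 2 were called, both saturated, and the median was 0.08. Over all features 19.0% had such a p and 0.925% were called. In consecutive stretches of 2.5 Mb from the centromeric end, 3 of 22, 6 of 30, 2 of 13 and 10 of 41 tested members had an unadjusted p under 0.05, which is 13.6%, 20.0%, 15.4% and 24.4% against the same 19.0%, and the medians were 0.03, 0.07, 0.08 and 0.03. The centromeric side counted 10 of 56 such members and the telomeric side 11 of 50. Between 1.49 and 2.92 Mb on the telomeric side no member has a probe. Neighbours are not replicates, and no test was made over distance.

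**Figure D4:**
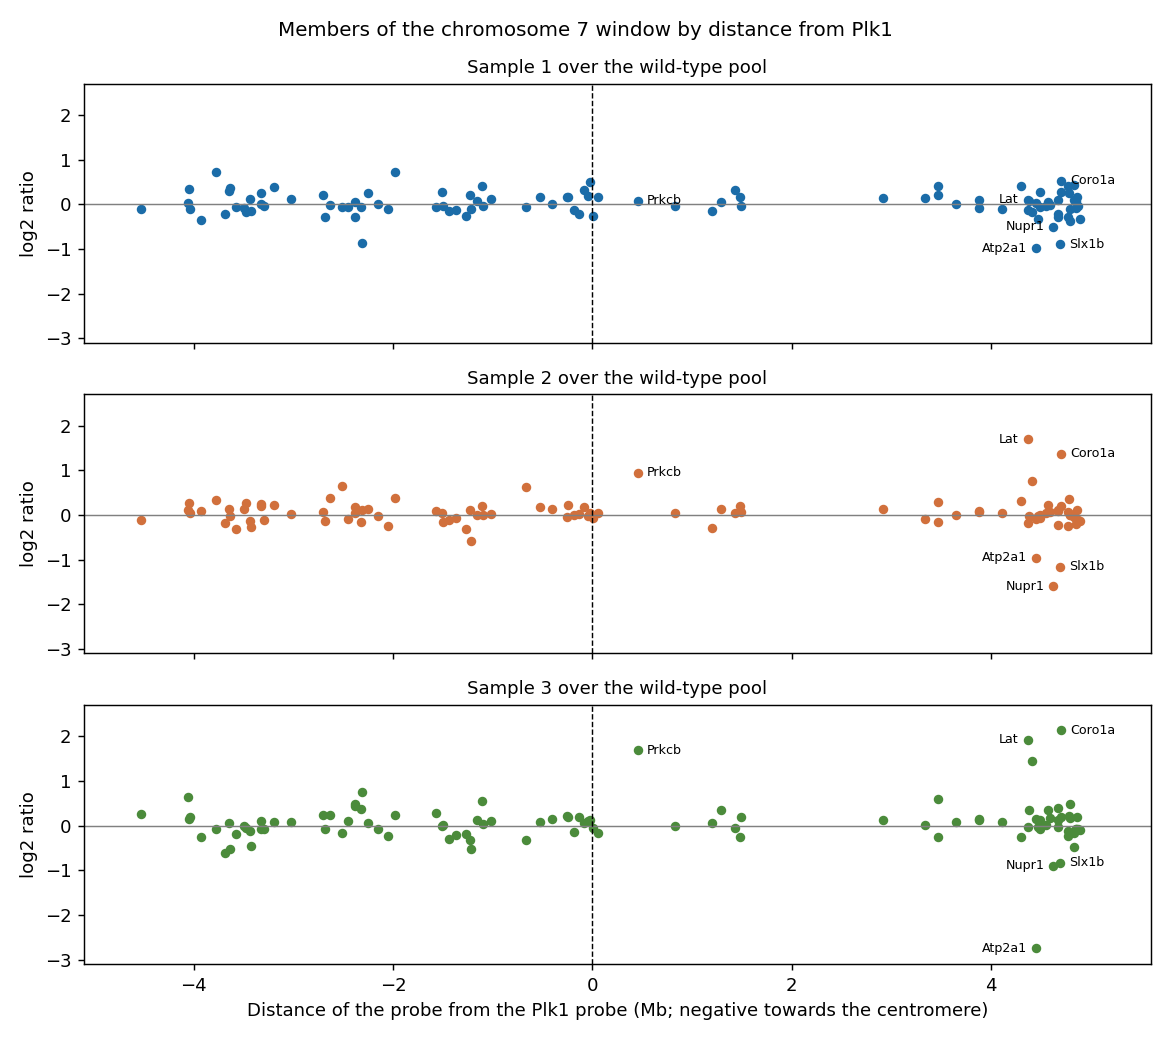
Log2 ratios (vertical axis) of the 103 unsaturated members against the distance of their probe from the Plk1 probe in Mb (horizontal axis, negative towards the centromere, dashed line at Plk1), 1 panel for each sample. Points beside Plk1 lie near 0 apart from Prkcb, and the named points far from 0 beyond 4 Mb on the telomeric side are Coro1a, Lat, Slx1b, Nupr1 and Atp2a1.

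The widest departures but that of Prkcb lay far from Plk1, in the gene-dense stretch beyond 4 Mb on the telomeric side. Coro1a, Lat, Nupr1, Atp2a1 and Slx1b sit there among genes near 0. Prkcb, at 459 kb from Plk1, averaged 0.91. Sult1a1, Slx1b, Bola2 and Coro1a have their probes within 0.03 Mb of each other and averaged 0.09, -0.96, 0.23 and 1.34. Spns1 and Rabep2, an effector of endosomal Rab proteins, lie between Lat and Atp2a1 and averaged -0.11 and 0.03. Members next to each other on the chromosome thus gave unlike ratios here.

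Different probes of the same gene mostly lay within 0.3 of each other, but many differed in sign. Over the 36 members with more than 1 kept unsaturated probe the median spread between probe means was 0.14, and 28 had a spread under 0.3. The spread was over 0.5 for 2, Slx1b and Prkcb. Of the 37 tested members with a further kept probe, 18 had at least 1 of the opposite sign, namely Smg1, Coq7, Tmc7, Knop1, Thumpd1, Eri2, Dcun1d3, Dnahc3, Polr3e, Mfsd13b, Ubfd1, Dctn5, Tnrc6a, D430042O09Rik, Eif3c, Ppp4c, Taok2 and, against its saturated probe, Ndufab1. Such spreads are as large as the means of most members.

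**Figure D5:**
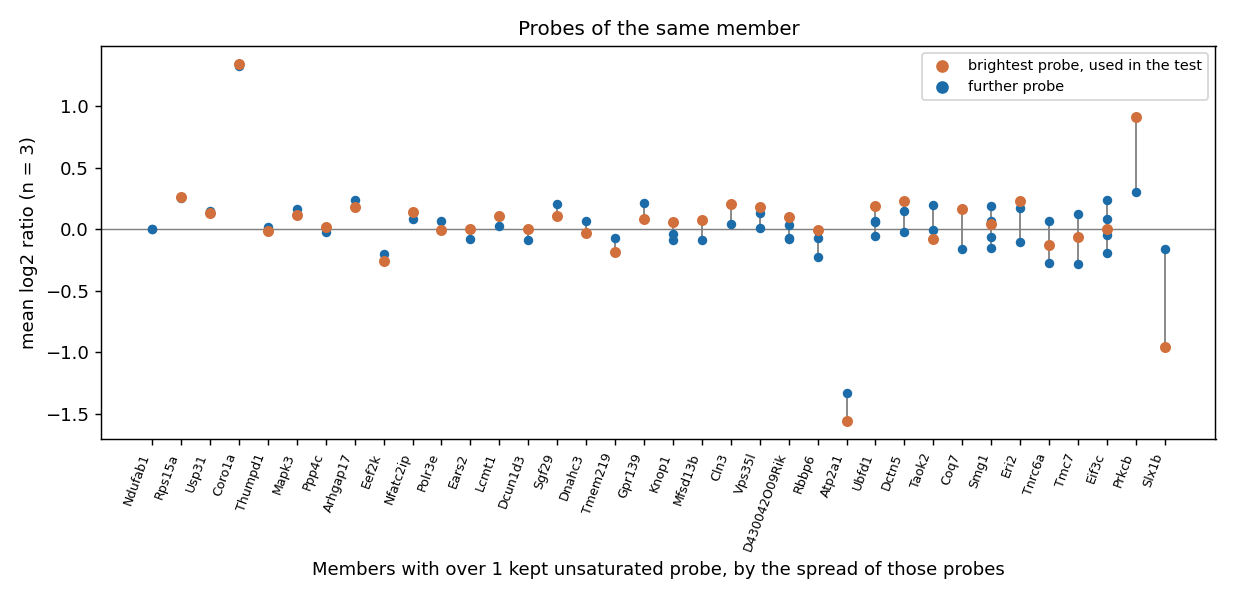
Mean log2 ratio (vertical axis, n = 3) of each kept unsaturated probe of the 36 members with more than 1, ordered by the spread between their probes (horizontal axis), with the brightest probe in orange and further probes in blue. For Ndufab1 the brightest probe is saturated and not drawn. Both Coro1a probes lie above 1.3, both Atp2a1 probes below -1.3, and the Slx1b probes lie 0.80 apart.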

How the data were processed

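The scanner files hold intensity values for each spot, which the authors read with Agilent Feature Extraction (version 9.5.3.1, per the file headers) for probes placed on mm7. Their deposited log10 ratio sets processed Cy5 against processed Cy3, per the file headers. The authors' series values are log2 for 28817 probes. Against that ratio they had slopes of 0.997, 0.999 and 0.998, with medians of -0.02, -0.0052 and -0.03. Their scale and direction are thus known, and their centring step is not.

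Mean signals were corrected with normexp (offset 50) and normalised within arrays by loess without weight for controls, using limma (3.58.1, R 4.3.3). Outlier spots (136, 109 and 100) were left out and spots of a probe averaged. Probes needed a signal well above background, in Cy5 or Cy3, on 2 or more arrays, and the brightest probe stood for a gene. Ratios were tested against 0 (lmFit, eBayes, two-sided). The pool is 1 control sample, so its own spread is left out. Saturated features have no fold. Where a probe was not well above background in the pool, the fold is a bound against the dimmest signal well above background, per channel after normalisation. It is a point value without an error and is open to dye bias.

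Names were updated through RefSeq (GRCm38.p6), in which 109 of 118 members matched, all on chromosome 7. Exons and UTRs were not analysed. Named were Plk1, the 8 nearest members on each side, called members, the 10 unsaturated members with the smallest p and 1 sign in each direction, members of 10 classes and members with a further probe of opposite sign. The members, classes and 10 marker lists were chosen with earlier results of these data known. The values of 1 class member and 1 marker are not reported here.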

Additional observations from a re-analysis of the deposited data

How the results depend on the processing

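The number of members called, 4, was 59 with median centring in place of loess, 0 with saturated features left out, 2 with the mean over kept probes, 2 among members within 2 Mb of Plk1, and 0 to 2 when 1 sample was left out (2 without sample 1, 0 without sample 2 and 0 without sample 3). Members at an unadjusted limma p under 0.05, 21 in all, numbered 76 with median centring, 8 within 2 Mb and 8 to 18 with a sample left out, fewest without sample 2. One sign on all arrays was seen for 85 with median centring and for 17 within 2 Mb, against 53. Shares of all features under these settings are given only for the calls with median centring and for saturated features left out. The other counts have no such background, so they describe the settings and are not traits of the members. The median of 0.04 was 0.34 with median centring, 0.0789 within 2 Mb and 0.0714 with clone names left out. Median centring moved the median of all features from 0.04 to 0.23 and called 44.3% of them. Of its 59 member calls 43 were higher (72.9%), against 0% of the 4 member calls in the main setting, so directions hold relative to that shift. The share of higher calls among all features is not given for median centring. Under it Tmem159 read 0.22 and BC030336 0.22, against -0.19 and -0.20. Over the alternatives for 23 named members, 263 values kept direction and side of the threshold, 16 lost a call, 12 gained one and 2 changed sign. No paired analysis was possible because the samples form 1 group measured against 1 pool. The cause of these shifts was not tested. Signal over background limits the 11 members dim in the pool.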
